A study of Mus musculus with 9 samples.

Results

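Genes that mark 2 resident cell types of the liver, Kupffer cells and liver sinusoidal endothelial cells, were followed through orthotopic Hepa1-6 tumors of mice given PBS or anti-PD-1 antibody. The 9 genes were chosen by name out of 52176 genes named in the tables of the 9 tumors, 5 of them for Kupffer cells (Clec4f, Vsig4, Timd4, Cd5l and Marco) and 4 for sinusoidal endothelial cells (Stab2, Clec4g, Oit3 and Lyve1). Hepa1-6 is a mouse hepatoma cell line, and all tumors grew in the liver of C57BL/6 mice, an inbred strain. The groups were 3 tumors of PBS-treated mice, 3 tumors of anti-PD-1 antibody-nonresponsive mice and 3 tumors of anti-PD-1 antibody-responsive mice, all injected intraperitoneally at intervals of 4 days with 5 injections in total. After antibody treatment the largest tumors were called nonresponsive, the smallest responsive, and those in between were not sequenced. Response and tumor size therefore cannot be told apart in these groups. Surrounding tissue had been removed from the tumors before RNA was taken, and the labels give neither the age nor the sex of the mice.

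Kupffer cells are the macrophages that live in the liver sinusoids, where they take up bacteria, dead cells and iron from the blood. The sinusoids are lined by a fenestrated endothelium that clears hyaluronan, collagen fragments and immune complexes, and its cells and the Kupffer cells lie next to the hepatocytes. Both cell types depend on the liver environment for much of their own set of genes, which sets them apart from most macrophages and vessels formed in a growing tumor. Albumin (Alb), the main secreted protein of hepatocytes, stands here for hepatocyte RNA, although hepatoma cells can also make it. In bulk RNA fewer cells of a type cannot be told apart from less RNA of a gene per cell.

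The promoters of the leading genes are shown because the levels of the genes of each cell type went up and down together across tumors. RefSeq promoters of build GRCm38.p6, from 250 bases before to 50 bases after the start, were at hand for 7 of the 9 genes, and Oit3 and Lyve1 were not matched. Letters searched on both strands were AGATAA and TGATAA (bound by GATA factors such as GATA4), GAGGAA (bound by ETS factors such as PU.1) and TGCTGA (the core of the site bound by MAF factors), which do not overlap each other in these windows. Of 32851 promoters of the same length 18.6% held AGATAA or TGATAA, 28.3% held GAGGAA and 19.5% held TGCTGA. The Clec4f promoter lies on the minus strand at chr6:83656067-83656366, that of Cd5l on the plus strand at chr3:87357631-87357930, that of Stab2 on the minus strand at chr10:87007893-87008192 and that of Clec4g on the minus strand at chr8:3720602-3720901. They are written 5′ to 3′ on the strand of the gene, with the searched letters in capitals.
Clec4f: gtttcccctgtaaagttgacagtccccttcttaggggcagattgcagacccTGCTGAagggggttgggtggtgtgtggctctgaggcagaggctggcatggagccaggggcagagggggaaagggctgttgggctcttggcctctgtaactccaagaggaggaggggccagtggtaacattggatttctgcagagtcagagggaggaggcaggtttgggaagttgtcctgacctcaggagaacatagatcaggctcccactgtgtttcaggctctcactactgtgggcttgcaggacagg
Cd5l: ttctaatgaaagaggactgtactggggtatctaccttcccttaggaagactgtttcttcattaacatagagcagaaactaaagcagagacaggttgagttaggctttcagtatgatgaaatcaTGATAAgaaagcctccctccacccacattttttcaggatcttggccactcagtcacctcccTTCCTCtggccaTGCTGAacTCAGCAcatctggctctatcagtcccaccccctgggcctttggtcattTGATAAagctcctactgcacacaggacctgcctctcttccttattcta
Stab2: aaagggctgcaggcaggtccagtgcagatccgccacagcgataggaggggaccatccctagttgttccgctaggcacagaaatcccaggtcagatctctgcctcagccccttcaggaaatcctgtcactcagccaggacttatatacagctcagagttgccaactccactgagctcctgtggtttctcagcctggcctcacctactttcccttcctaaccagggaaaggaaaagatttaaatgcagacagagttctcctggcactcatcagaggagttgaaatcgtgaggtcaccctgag
Clec4g: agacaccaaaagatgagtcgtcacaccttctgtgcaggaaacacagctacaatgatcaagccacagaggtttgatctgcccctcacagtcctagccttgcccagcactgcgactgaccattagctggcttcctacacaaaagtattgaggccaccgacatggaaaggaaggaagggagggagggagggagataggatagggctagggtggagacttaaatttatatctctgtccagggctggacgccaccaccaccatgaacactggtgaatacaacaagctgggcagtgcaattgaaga
TGCTGA was found 199 bases before the start of Clec4f. Cd5l held TGCTGA 54 and 46 bases before its start, GAGGAA 66 bases before it and TGATAA 127 bases before it and again from base 3 of the transcript, counted from 1 at the start. TGCTGA was also in the windows of Vsig4 and Timd4, and GAGGAA in those of Vsig4 and Marco, so that 4 of the 5 Kupffer cell genes held the MAF core site. Stab2 and Clec4g held none of these letters. A match in so short a window is a description of the letters and not of binding.

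Every one of the 9 genes had 1 row in each tumor, and 0 other genes were named in these rows, so no value had to be shared or split. FPKM values, fragment numbers corrected for transcript length and sequencing depth, were used as log2(FPKM + 1), a scale on which differences of weakly expressed genes come out too small. All 9 genes passed the filter on low values, which asked that 3 or more of the 6 tumors of a comparison reach an FPKM of 1. The tables do not give the number of sequenced fragments, so the depth is unknown. The steps between the lowest FPKM gave relative depths of 0.936 to 1.07 with PBS tumor 1 set to 1. Only ratios near 1 were searched for this, so a large difference in depth could not have appeared and is not excluded. Rows that name no gene took 19.2% to 81.5% of the summed FPKM, most in PBS tumor 1, and 70.4% to 73.2% in nonresponsive against 21.0% to 55.1% in responsive tumors. PBS tumor 1 also had the lowest correlation with the other tumors, with a median r of 0.769 against 0.799 to 0.862. Rescaling each tumor to the same total of named rows moved the median log2 difference of all genes from −0.066 to −0.37 in responsive against nonresponsive tumors and from −0.11 to −0.34 in responsive against PBS tumors. With it the genes with an unadjusted p under 0.05 went from 561 higher and 199 lower to 178 higher and 970 lower in the first of these comparisons, and from 1173 and 1212 to 818 and 1851 in the second, while the 9 genes kept their directions. The median difference of the 9 genes in responsive against nonresponsive tumors was then 0.27 in place of 0.61, with Clec4f at 0.27 in place of 0.61 and Vsig4 at 0.037 in place of 0.37, and the difference of Lyve1 in responsive against PBS tumors was 0.011 in place of 0.24.

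Markers of both cell types were measured in every tumor, above an FPKM of 1 in all 9 tumors for Clec4f, Cd5l and Lyve1 and in 8 for the other 6 genes. On FPKM, which is per length and so can be compared between genes, Cd5l was highest with a mean of 53.5 ± 35.1 (SD, n = 9 tumors), followed by Clec4f with 38.1 ± 26.8. Vsig4 and Marco had means of 21.8 ± 13.0 and 21.3 ± 25.7. Clec4g and Lyve1 were at 13.5 ± 10.6 and 11.9 ± 4.67, and Oit3, Stab2 and Timd4 at 4.73 ± 3.30, 4.54 ± 2.52 and 4.38 ± 2.47. These SDs are between tumors, and differences between genes measured in the same tumors were not tested. Within tumors Cd5l ranked first and Clec4f had rank 2 or 3, except that in PBS tumor 1 Lyve1 ranked first and Cd5l next. The ratio of the highest to the lowest tumor was 162 for Marco, 67.8 for Clec4f, 64.5 for Cd5l and 61.5 for Stab2. Lyve1 varied least, with a ratio of 2.89.

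**Figure D1:**
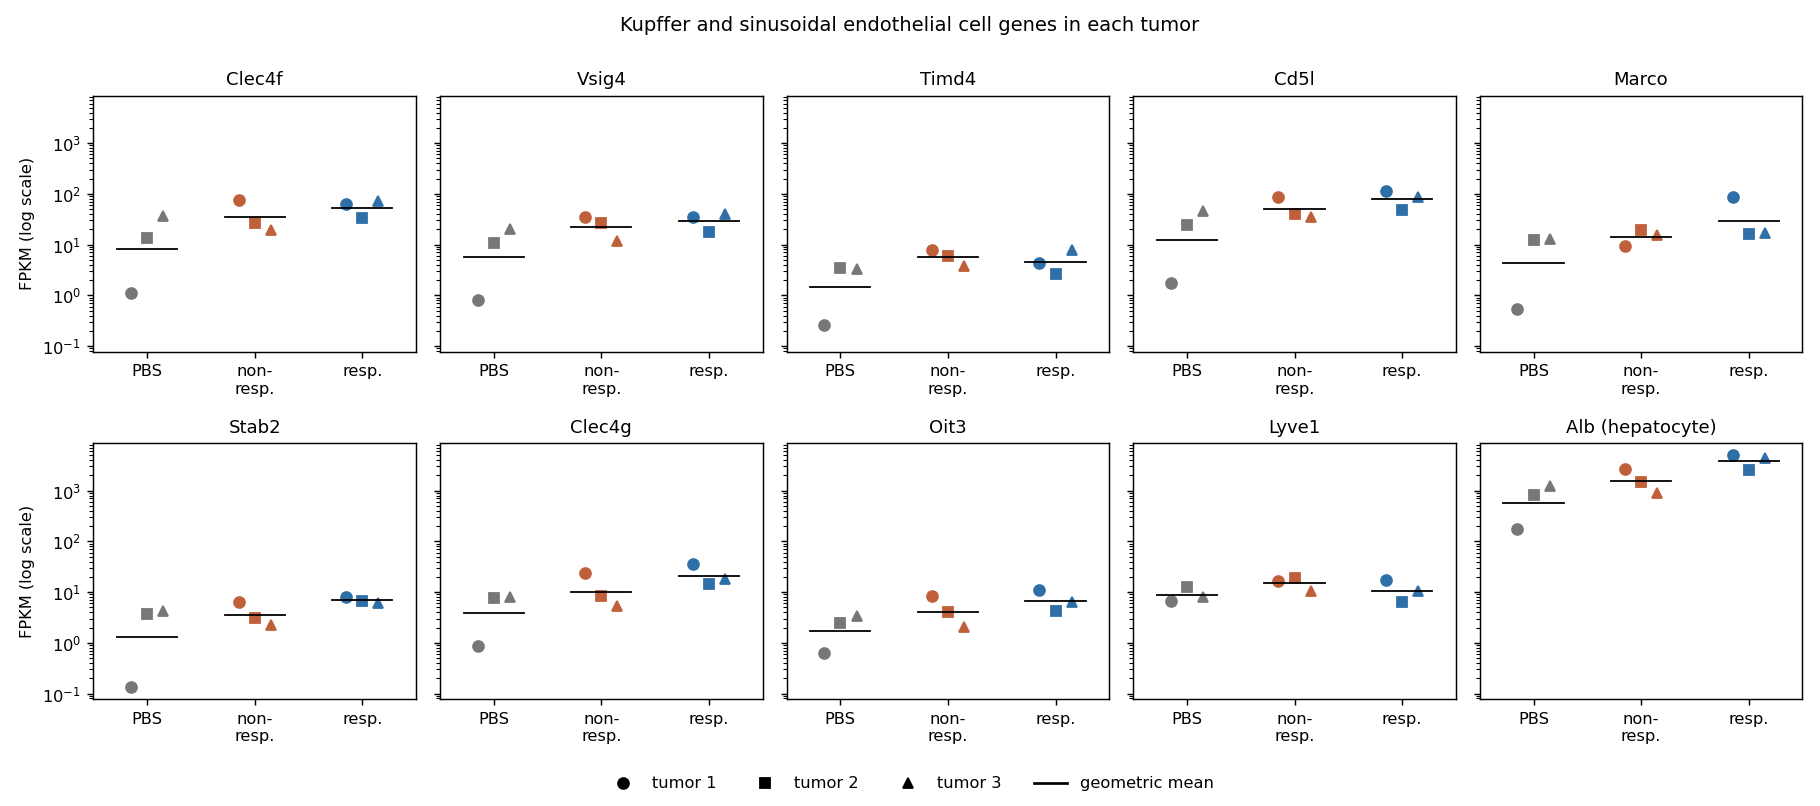
FPKM of the 9 genes and of Alb in each tumor on a log axis, with symbols for the tumor number within a group and a bar at the geometric mean of each group. PBS tumor 1 is the lowest tumor for 8 of the 9 genes, and Lyve1 spans the narrowest range.

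Clec4f, a C-type lectin that in mice is made almost only by Kupffer cells, had FPKM of 1.14, 13.4 and 37.2 in PBS tumors, 77.0, 27.2 and 19.3 in nonresponsive tumors and 61.9, 33.6 and 72.5 in responsive tumors. The 3 groups overlapped, since PBS tumor 3 lay above 2 nonresponsive tumors and 1 responsive tumor. Vsig4, the complement receptor with which Kupffer cells catch opsonised bacteria, had 0.819, 10.6 and 19.9 in PBS, 34.9, 26.1 and 11.9 in nonresponsive tumors and 35.3, 17.8 and 39.3 in responsive ones. Its order of tumors was close to that of Clec4f, with an r of 0.98 between the genes over 9 tumors.

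Timd4 encodes a receptor for phosphatidylserine on dying cells and marks Kupffer cells of embryonic origin. Its FPKM were 0.263, 3.48 and 3.23 in PBS, 7.73, 5.90 and 3.85 in nonresponsive tumors and 4.30, 2.65 and 7.98 in responsive ones. All nonresponsive tumors were above all PBS tumors, while responsive tumors ranged from below PBS tumors 2 and 3 to the highest value of the 9. In PBS tumor 1 the deposited interval of Timd4 was 0.0679 to 0.458, below that of every other tumor.

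Cd5l, a secreted scavenger receptor protein of tissue macrophages, had 1.76, 24.3 and 45.2 in PBS, 86.7, 40.9 and 34.7 in nonresponsive tumors and 113, 49.1 and 85.8 in responsive ones. Each responsive tumor was above each PBS tumor, but nonresponsive tumors overlapped both groups. Marco, a scavenger receptor that binds bacteria, had 0.544, 12.1 and 12.9 in PBS, 9.57, 19.4 and 15.5 in nonresponsive tumors and 88.2, 16.2 and 16.9 in responsive ones. Its level in responsive tumor 1 was far above all others, and without that tumor the remaining values apart from PBS tumor 1 lay between 9.57 and 19.4.

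Stab2, the main hyaluronan clearance receptor of the sinusoidal endothelium, had FPKM of 0.132, 3.72 and 4.21 in PBS, 6.31, 3.15 and 2.24 in nonresponsive tumors and 8.09, 6.76 and 6.22 in responsive ones. Responsive tumors were above all PBS tumors and above 2 nonresponsive tumors, and nonresponsive tumor 1 lay among them. In PBS tumor 1 the deposited interval of Stab2 was 0 to 0.543, so it was at the limit of what was detected there. Clec4g, a C-type lectin of the same endothelium, had 0.877, 7.81 and 8.09 in PBS, 23.3, 8.32 and 5.33 in nonresponsive tumors and 35.0, 14.3 and 18.2 in responsive ones.

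Oit3, a zona pellucida domain protein used as a marker of liver endothelium, had 0.625, 2.49 and 3.40 in PBS, 8.42, 4.11 and 2.01 in nonresponsive tumors and 11.0, 4.18 and 6.41 in responsive ones. For Clec4g and Oit3 alike, responsive tumors did not overlap PBS tumors, and nonresponsive tumor 1 was next to the highest of all 9. Lyve1, a hyaluronan receptor shared by sinusoidal and lymphatic endothelium and by some macrophages, had 6.68, 12.5 and 8.06 in PBS, 16.4, 18.8 and 10.5 in nonresponsive tumors and 17.4, 6.49 and 10.3 in responsive ones. Lyve1 was the only one of the 9 genes whose lowest tumor was a responsive one, and its groups overlapped in each comparison.

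The first question was whether these resident cell genes differ between responsive and nonresponsive tumors. Of the 9 genes 7 had a higher mean in responsive tumors, and 0 passed limma's test with Benjamini-Hochberg adjustment over 13845 genes, where adjusted p-values ran from 0.885 to 0.977. At an unadjusted p under 0.05 there were also 0 of the 9 genes higher, against 4.05% of all genes, and for 0 of the 9 genes the responsive tumors lay above all nonresponsive tumors, against 5.78% of all genes. The median log2 difference over the 9 genes was 0.61, beside −0.066 over all genes tested. Stab2 came nearest with a log2 difference of 0.79 ± 0.340 (SE, limma, adjusted p = 0.885; exact permutation p = 0.2), and its 95% interval ran from −0.042 to 1.63. For Clec4f the difference was 0.61 ± 0.574 and for Clec4g 0.96 ± 0.584, while Timd4 and Lyve1 had lower means in responsive tumors, with differences of −0.25 ± 0.405 and −0.45 ± 0.397. Nonresponsive tumor 1 was the highest nonresponsive tumor for 7 of the 9 genes, and without it Clec4f, Stab2 and Clec4g had unadjusted p-values of 0.0329, 0.00485 and 0.0192, with the lowest limma adjusted p at 0.292. In that fit 7.17% of all genes were higher at an unadjusted p under 0.05.

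Responsive tumors were compared with PBS tumors to ask how these genes stood after a response to the antibody. All 9 means were higher in responsive tumors, with a median log2 difference of 1.98 beside −0.11 over all genes. None passed limma's test after adjustment over 13852 genes, with adjusted p-values from 0.282 to 0.722. At an unadjusted p under 0.05 there were 2 of 9 genes, Clec4g and Oit3, against 8.47% of all genes. The tumors of 5 genes (Cd5l, Marco, Stab2, Clec4g and Oit3) did not overlap, against 11.6% of all genes, and the exact permutation p of each was then 0.1, the smallest that 3 tumors against 3 allow. Clec4g was higher by 2.05 ± 0.714 (limma, adjusted p = 0.282) and Oit3 by 1.40 ± 0.488 (adjusted p = 0.282), with 95% intervals of 0.27 to 3.82 and 0.19 to 2.61. Cd5l and Clec4f had larger differences, 2.42 ± 1.09 and 2.36 ± 1.07, with a wider spread. Without PBS tumor 1 the median difference was 0.98, the differences of Clec4f and Cd5l were 1.21 each, and Cd5l, Stab2 and Clec4g had an unadjusted p under 0.05 (limma, adjusted p from 0.406 to 0.547), as had 6.37% of all genes in this direction. Without PBS tumor 3 there were 6 such genes, against 7.58% of all genes, and without PBS tumor 2 there was 1, against 9.33%. Without responsive tumor 1 or responsive tumor 3 there were 0, against 4.09% and 4.75% of all genes.

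Nonresponsive tumors against PBS tumors showed how the genes stood under the antibody without a response. Both comparisons with PBS share the same 3 PBS tumors, so their values are set side by side and are not independent of each other. All 9 means were again higher in the treated group, the median log2 difference was 1.20 beside −0.057 over all genes, and limma adjusted p-values over 13806 genes ran from 0.718 to 0.729. At an unadjusted p under 0.05 there were 0 of the 9 genes higher against 1.51% of all genes, and only Timd4 had no overlap between the groups, against 3.23% of all genes. Timd4 was higher by 1.20 ± 0.560 and Lyve1 by 0.69 ± 0.318, where responsive over PBS gave 0.95 ± 0.608 and 0.24 ± 0.396. For Clec4f, Vsig4 and Cd5l the differences were 1.75 ± 1.14, 1.61 ± 0.967 and 1.78 ± 1.09. Without PBS tumor 1 the median difference was 0.52, that of Clec4f 0.60 and that of Stab2 −0.10 in place of 0.61.

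**Figure D2:**
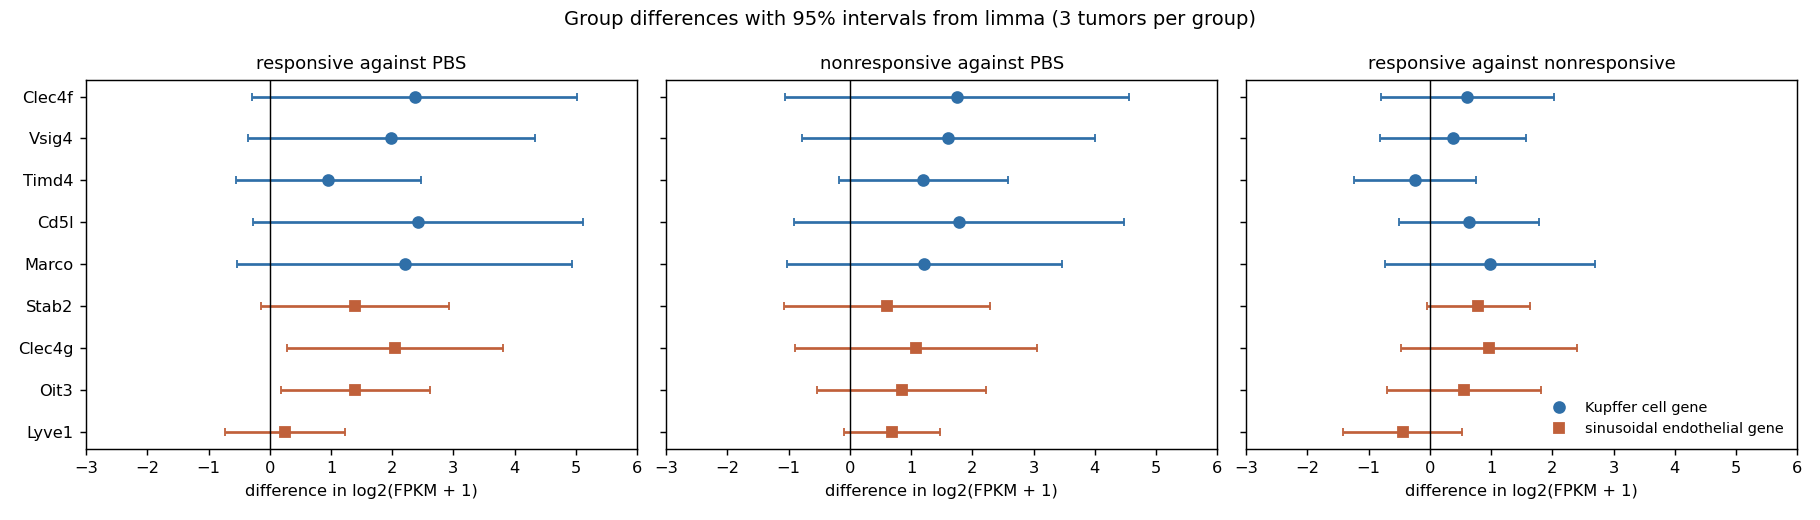
Differences in mean log2(FPKM + 1) between groups of 3 tumors with 95% intervals from limma, one panel per comparison. The interval lies above 0 only for Clec4g and Oit3 in responsive against PBS tumors, and all 9 points of both comparisons with PBS lie above 0.

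Other genes of the same cell types were described from lists. Of 16 other Kupffer cell genes 15 were tested in responsive against nonresponsive tumors, where 7 were higher, 0 of them with an unadjusted p under 0.05, and the median log2 difference was −0.001. Siglec1, a sialic acid receptor of resident macrophages, was the 1 gene with a p under 0.05 there. It had FPKM of 4.65, 3.85 and 4.84 in PBS, 7.89, 12.7 and 6.72 in nonresponsive tumors and 4.38, 2.62 and 5.20 in responsive ones, a log2 difference of −0.99 ± 0.325 (limma, adjusted p = 0.885). All nonresponsive tumors were above all other tumors for this gene, so that it did not share the order seen for Clec4f or Cd5l.

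In responsive against PBS tumors 13 of 14 tested genes of that list were higher, with a median of 0.96. After adjustment 0 passed (limma), and 6 had an unadjusted p under 0.05, against 8.47% of all genes. These were C6, a complement component, Hpgd, which degrades prostaglandins, Fcna, a ficolin that starts the lectin pathway of complement, Cd163, the receptor for haemoglobin and haptoglobin, Clec1b and Nr1h3. C6 had FPKM of 1.61, 10.2 and 16.0 in PBS and 69.9, 18.1 and 34.6 in responsive tumors, without overlap, and Fcna 3.68, 7.31 and 9.73 against 16.1, 11.1 and 22.1. Nr1h3, the oxysterol receptor LXRα, had a value of 0 in PBS tumors 2 and 3 and nonresponsive tumor 2, and Clec1b in PBS tumor 3 and nonresponsive tumor 1. Genes flagged with a failed estimate had been left out. A value of 0 can also stand for a tumor without a row naming the gene, and which of these it was here was not checked. Every row that names Clec1b also names Clec9a, and every row that names Nr1h3 also names Gm13783. The values of these genes therefore cannot be told apart from those of the gene named with them. In nonresponsive against PBS tumors all 14 tested genes were higher with a median of 0.89. Fcna and Siglec1 had an unadjusted p under 0.05 there, against 1.51% of all genes. Folr2 had a value of 0 in all PBS tumors and also in nonresponsive tumor 3 and responsive tumor 2, with 30.0 to 49.0 in the other treated tumors. Kcnj16 stayed under an FPKM of 1 in every tumor.

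Of 16 other sinusoidal endothelial genes 14 were tested. In responsive against nonresponsive tumors 7 were higher, 0 had an unadjusted p under 0.05 and the median was 0.074. Against PBS 12 were higher in responsive tumors (median 0.75) and 13 in nonresponsive tumors (median 0.50). Those with an unadjusted p under 0.05 in responsive tumors were Cyp4b1, a fatty acid hydroxylase, and Gpr182, an endothelial chemokine scavenger, against 8.47% of all genes. In nonresponsive tumors it was Stab1, the scavenger receptor related to Stab2, against 1.51% of all genes. After adjustment 0 passed (limma). Gpr182 had FPKM of 0, 2.95 and 2.89 in PBS, 5.99, 3.13 and 2.24 in nonresponsive tumors and 7.25, 4.44 and 6.45 in responsive ones. Its value of 0, in PBS tumor 1, can likewise stand for a tumor without a row naming the gene. Stab1 had 7.83, 16.0 and 10.2 in PBS, 43.9, 32.5 and 14.7 in nonresponsive tumors and 35.7, 13.9 and 21.3 in responsive ones. Stab1 thus had its highest value in a nonresponsive tumor and Stab2 in a responsive one. Fcgr2b, Stab1 and Mrc1 are also made by macrophages of other kinds.

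All 18 hepatocyte genes listed were higher in each of the 3 comparisons. Their medians were 1.42 in responsive against nonresponsive, 2.91 in responsive against PBS and 1.40 in nonresponsive against PBS tumors. An unadjusted p under 0.05 was found for 9, 17 and 1 of them, against 4.05%, 8.47% and 1.51% of all genes, with 0 after adjustment (limma). In the same order the medians of the 4 sinusoidal endothelial genes were 0.67, 1.40 and 0.77. The median of the 5 Kupffer cell genes was above that of the hepatocyte genes in nonresponsive against PBS tumors, at 1.61, and below it in the other comparisons. The summed FPKM of the hepatocyte genes ranged from 689 to 5983 in PBS, from 3823 to 13647 in nonresponsive and from 11281 to 24361 in responsive tumors, and none of them was listed at 0. Alb had 173, 835 and 1259 in PBS, 2678, 1490 and 885 in nonresponsive tumors and 5041, 2576 and 4396 in responsive ones. The other lists differed less in responsive against PBS tumors, with medians of 0.57 for 10 general macrophage genes, 0.15 for 10 monocyte and tumor macrophage genes, −0.28 for 6 genes of other tissue macrophages, 0.24 for 10 general endothelial genes, 0.30 for 8 genes of continuous or tumor vessels, 0.32 for 6 lymphatic genes, 0.058 for 7 hepatic stellate genes and −0.74 for 7 genes of Hepa1-6 and fetal liver. In responsive against nonresponsive tumors the medians of these lists, in the same order, were −0.36, −0.56, −0.14, −0.11, −0.016, 0.14, 0.076 and −0.29. How far hepatocytes taken with a tumor contribute to the levels of the 9 genes was not tested.

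The relation to Alb was then measured over the 9 tumors on the log2 scale. An exact permutation test over all 362880 pairings was adjusted over 14473 genes, of which 9.97% had a positive r with an adjusted p under 0.05, and 7 of the 9 genes were among them. Clec4g had an r of 0.97 (exact permutation p = 0.000146, adjusted p = 0.00443; Spearman rho 0.97, adjusted p = 0.00631), and Cd5l had an r of 0.96 (adjusted p = 0.0014; rho 0.97, adjusted p = 0.00631). For Stab2, Clec4f, Oit3 and Vsig4 r lay between 0.94 and 0.95, with adjusted p-values of 0.00702, 0.00782, 0.00421 and 0.00891 by exact permutation and rho of 0.85, 0.88, 0.97 and 0.93. The median r of all genes with Alb was −0.16.

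Marco was related to Alb less closely, with an r of 0.83 (exact permutation, adjusted p = 0.0472) and a rho of 0.67 (adjusted p = 0.131). Timd4 had an r of 0.81 and the same rho, with an adjusted p of 0.0587 for r by exact permutation. Lyve1 was not shown to follow Alb, with an r of 0.45 and a rho of 0.33 (exact permutation, adjusted p = 0.338 and 0.497).

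PBS tumor 1, lowest for Alb and for 8 of the 9 genes, and responsive tumor 1, highest for Alb, were the tumors farthest from the median Alb. Without both, r over 7 tumors was 0.91 for Cd5l, 0.89 for Clec4g, 0.88 for Clec4f, 0.87 for Oit3, 0.85 for Vsig4 and 0.84 for Stab2. Of the 9 genes 0 passed the adjustment (exact permutation, lowest adjusted p = 0.128). In this set of tumors 0 of 14073 genes passed it. Marco had an r of 0.095 there, Timd4 of 0.58 and Lyve1 of −0.094, so that the relation of Marco rested on those tumors. Without PBS tumor 1 alone 3 genes passed (Cd5l, Clec4g and Oit3, with an r of 0.94, 0.92 and 0.91), and Clec4f, Vsig4 and Stab2 had an r of 0.88, 0.87 and 0.89 with adjusted p-values of 0.0799, 0.0934 and 0.0784 by exact permutation. Groups of 3 tumors are too small for an r of their own. With the group means subtracted from both genes, a description without a test, r was 0.98 for Vsig4, Clec4f and Cd5l, 0.95 for Stab2 and Clec4g, 0.92 for Oit3, 0.90 for Timd4, 0.70 for Marco and 0.58 for Lyve1. Tumors with more Alb than the rest of their group thus tended to have more of most of the Kupffer and sinusoidal genes, but not for each gene in each group. Marco was lowest in the nonresponsive tumor with the most Alb. Timd4 was higher in responsive tumor 3 than in responsive tumor 1, which had more Alb. No r of this kind was taken without PBS tumor 1, the lowest of its group for Alb.

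**Figure D3:**
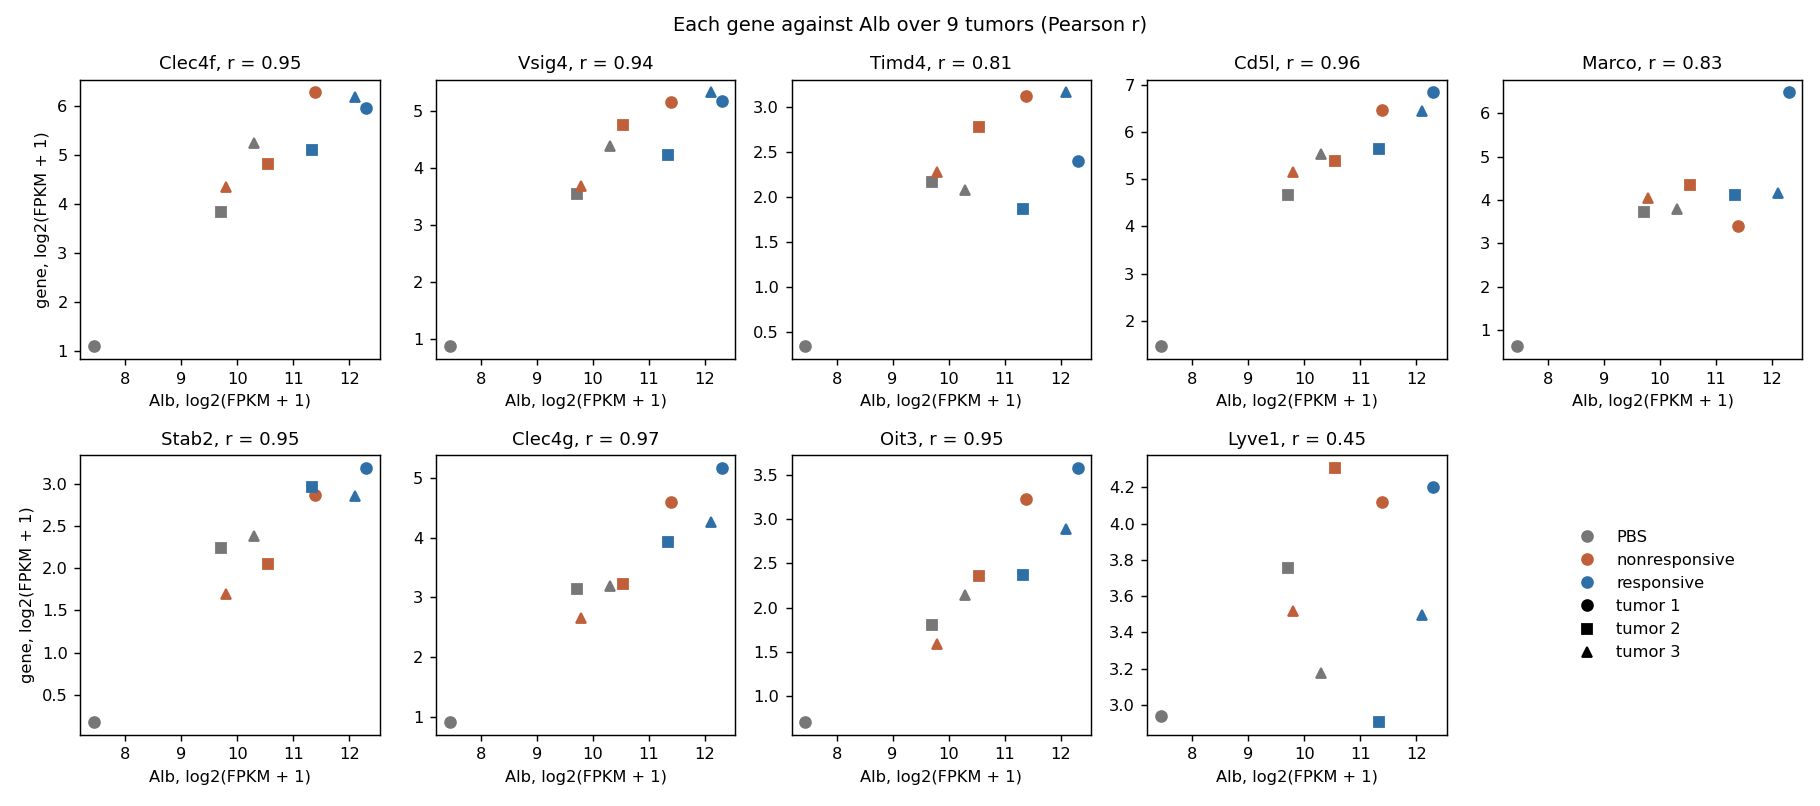
Level of each gene against that of Alb in 9 tumors, both as log2(FPKM + 1), colored by group and with symbols for the tumor number. PBS tumor 1 stands alone at the lower left for all genes but Lyve1, and the remaining tumors lie higher where Alb is higher for Clec4f, Vsig4, Cd5l, Stab2, Clec4g and Oit3.

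Differences between groups were next adjusted for Alb, with the log2 value of Alb as a covariate in a fit of all 9 tumors. The direction then turned. In responsive against nonresponsive tumors all 9 genes were lower, with a median log2 difference of −0.83 beside 0.013 over all genes. Vsig4 gave a difference of −1.16 ± 0.234 (limma, adjusted p = 0.317), and Clec4f, Timd4 and Cd5l gave −1.16 ± 0.290, −1.12 ± 0.330 and −1.07 ± 0.289, all with an unadjusted p under 0.05, as had 7.48% of all genes in this direction. The sinusoidal genes Stab2, Clec4g and Oit3 had smaller differences of −0.20 ± 0.266, −0.30 ± 0.317 and −0.32 ± 0.305. Against PBS tumors responsive tumors were also lower for all 9 genes (median −0.64, limma, lowest adjusted p = 0.607), while nonresponsive tumors had a median of −0.075. None of the 9 genes passed the adjustment in any of these fits. Alb itself differs between the groups, so its part and that of the group can be separated only by the spread of Alb within the groups. Only nonresponsive tumor 1, with an FPKM of 2678, reached the Alb of the lowest responsive tumor, 2576, and no PBS tumor did. The adjusted differences therefore rest on the fitted line more than on tumors of like Alb. No such fit was made without PBS tumor 1, which had the lowest Alb.

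The log2(FPKM + 1) of Alb was also subtracted from the mean of the genes in each tumor, a difference without a model. Unlike the fit it takes a slope of 1 for granted. Genes that vary less than Alb then tend to come out low where Alb is high, so it does not repeat the fit. For the Kupffer cell genes this difference was −6.92, −7.14 and −7.04 in responsive tumors, below all other tumors, which lay between −6.56 and −5.89. The sinusoidal endothelial genes gave −8.27, −8.29 and −8.73 in responsive tumors, against −7.68 to −6.26 in the other 6. The value of PBS tumor 1 is raised by the added 1, since most of the genes were under an FPKM of 1 there.

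Relative to cells of their own class the genes stood the other way round. The mean of the Kupffer cell genes minus that of the general macrophage list was −2.86, −2.78 and −2.38 in responsive tumors, above all other tumors, which ranged from −5.36 in PBS tumor 1 to −2.98. The sinusoidal genes minus the general endothelial list gave −0.37, −0.76 and −0.91 in responsive tumors and −2.37 to −0.998 in the others. By the mean of each set, responsive tumors thus had the highest level of liver-resident genes per general macrophage or endothelial gene, and the lowest per Alb. This did not hold for each gene. Lyve1 had a log2 difference of −0.45 in responsive against nonresponsive tumors, below the median of the general endothelial list. The low level per Alb was not particular to these genes. Alb was higher in responsive tumors by log2 differences of 1.34 against nonresponsive and 2.76 against PBS tumors. The general macrophage list had medians of only −0.36 and 0.57 there, and the general endothelial list of −0.11 and 0.24. Both general lists were thus also lower relative to Alb in responsive tumors.

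**Figure D4:**
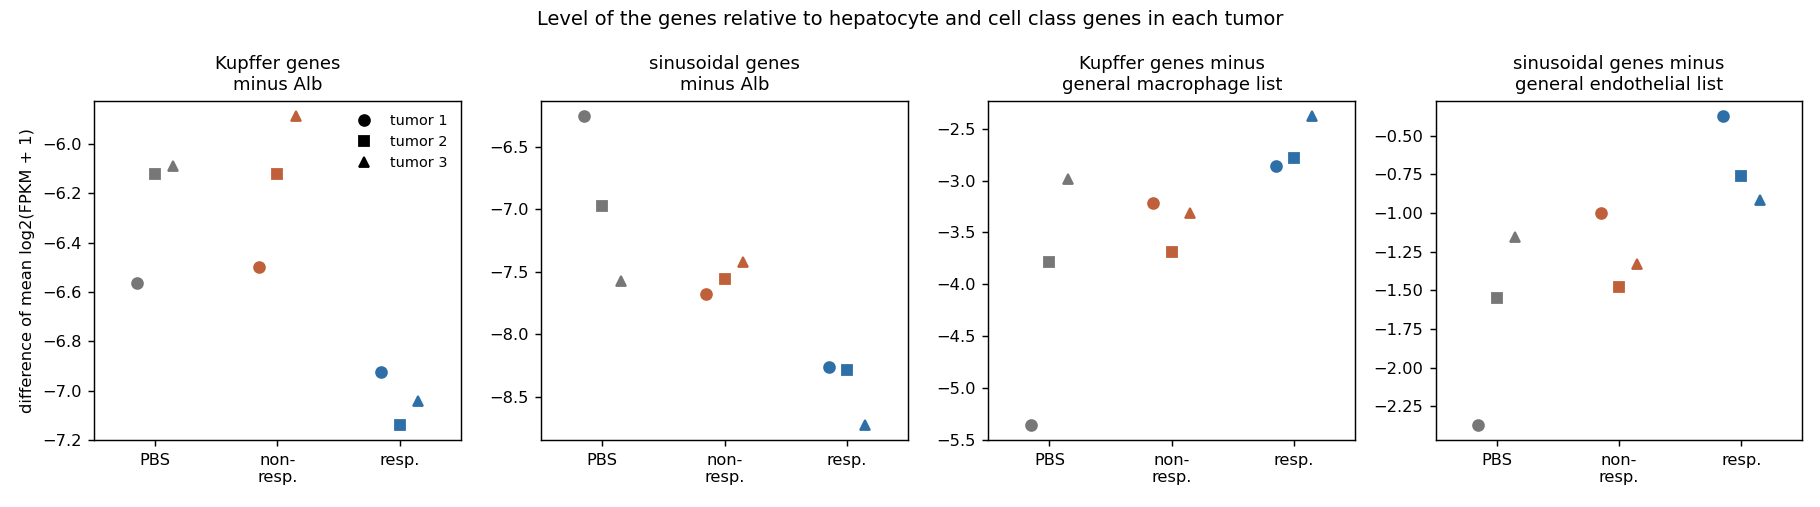
Mean log2(FPKM + 1) of the Kupffer cell genes or the sinusoidal endothelial genes minus that of Alb (left panels) or of the general macrophage or endothelial list (right panels), one point per tumor with symbols for the tumor number. The 3 responsive tumors are lower than the other 6 relative to Alb and higher than them relative to the lists of their cell class.

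Across tumors the 9 genes were close to each other except for Lyve1. Correlations over 9 tumors, given as descriptions, had a median of 0.89 among the 5 Kupffer cell genes (lowest 0.66, between Timd4 and Marco) and ran from 0.90 to 0.98 among Stab2, Clec4g and Oit3. The highest pair was Clec4f with Cd5l at 0.99, and the highest pair within the sinusoidal set was Clec4g with Oit3 at 0.98. Between the sets r ranged from 0.48 to 0.95, so the patterns of the sets overlapped. All these points share the same tumors, PBS tumor 1 among them.

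Lyve1 had its highest r with Timd4, at 0.67, and its lowest with Stab2, at 0.39. It was closer to the mean of the general macrophage list (r = 0.92) and of the general endothelial list (0.86) than to the hepatocyte list (0.47) or the lymphatic list (0.68). Clec4g and Stab2 were the reverse, with 0.98 and 0.97 to the hepatocyte list and 0.72 and 0.62 to the general endothelial list.

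The genes most like the mean pattern of the Kupffer cell genes, out of 14006 ranked over 9 tumors, were Pzp (r = 0.99), Hp, Cpb2, C3, Pigr, Mug2, Mug-ps1, Mug4-ps, Dio1 and Fmo5. Mug2 and the pseudogenes Mug-ps1 and Mug4-ps had almost equal mean FPKM of 160.4, 160.5 and 160.3, so their values cannot be told apart. For the sinusoidal endothelial genes they were Gpr146 (r = 0.99), Tmem176a, Kifc3, Pth1r, Cib2, Creg1, Cd302, F10, Dapk1 and Cyb5r3. Alb ranked 171st for the first pattern with an r of 0.95 and 483rd for the second with 0.93.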

How the data were processed

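Bulk RNA sequencing of 9 tumors was used, 1 tumor of 1 mouse per sample, with groups from the labels. The authors deposited FPKM values with an interval for each gene and tumor, computed with Cufflinks, which assembled the transcripts tumor by tumor, without pooling of replicates. The submitters' processing notes name TopHat2 2.1.1, Bowtie2 2.2.4 and build mm8. Gene starts in the tables equalled those of GRCm38 in 18 of 32189 genes, so no coordinates from them are printed, and promoter positions are those of RefSeq on GRCm38.p6. The authors' Cuffdiff table of fold changes, p-values and q-values was not used.

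FPKM of all rows naming a gene symbol were summed (52176 genes), and 13 symbols with a failed estimate were left out. The test was limma 3.58.1 (R 4.3.3; lmFit, eBayes with trend) on log2(FPKM + 1) of the 6 tumors of a comparison, for genes reaching an FPKM of 1 in 3 tumors or more, with Benjamini-Hochberg adjustment over all of them. Correlations and exact two-sided permutation tests used Python 3.11.15, numpy 2.4.6, scipy 1.17.1 and pandas 2.3.3, and plots matplotlib 3.10.9. The limma fit of 3 against 3 tumors and the permutation test of a correlation were tested on simulated data, and the other steps were not. At most 0.00586% of values were identical between any pair of tumors.

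The 9 genes and the 11 other lists were written with earlier results of these data known. Named genes are the 9, from each list those with an unadjusted p under 0.05 or otherwise the 3 with the highest mean FPKM, and the 10 genes closest by r to the mean z-score of each set. Folr2, Kcnj16, Fcgr2b and Mrc1 were named after their values were seen. Alternatives were a pseudocount of 0.1, no filter, a minimum FPKM of 5, upper-quartile scaling, rescaling to the total of named rows, a joint fit of 9 tumors, a replicate block, Alb or the hepatocyte list as a covariate, joined or unshared rows, robust eBayes and leaving out tumors or groups. The p-values measure the spread between these tumors, 1 per mouse.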

Additional observations from a re-analysis of the deposited data

How the results depend on the processing

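Over 18 alternatives per comparison 435 of 481 values of single genes kept their direction with an adjusted p above 0.05, and 46 turned in direction. The lowest limma adjusted p of any gene in any comparison and setting was 0.16, so 0 of the 9 genes passed the adjustment throughout. With a minimum FPKM of 5 there was no value for Timd4 and Oit3 in responsive against PBS tumors, nor for Timd4, Stab2 and Oit3 in nonresponsive against PBS tumors. Most turns came with hepatocyte RNA as a covariate in the fit of 9 tumors.

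With Alb as the covariate the log2 differences that turned in responsive against nonresponsive tumors were −1.16 for Clec4f, −1.16 for Vsig4, −1.07 for Cd5l, −0.23 for Marco, −0.20 for Stab2, −0.30 for Clec4g and −0.32 for Oit3 (median −0.83, 4 genes lower with an unadjusted p under 0.05, against 7.48% of all genes). In responsive against PBS tumors they were −1.30 for Clec4f, −1.19 for Vsig4, −0.85 for Timd4, −1.11 for Cd5l, −0.31 for Marco, −0.64 for Stab2, −0.55 for Clec4g, −0.41 for Oit3 and −0.54 for Lyve1 (median −0.64, 3 genes against 4.39%). In nonresponsive against PBS tumors they were −0.14 for Clec4f, −0.024 for Vsig4, −0.040 for Cd5l, −0.075 for Marco, −0.45 for Stab2, −0.25 for Clec4g and −0.085 for Oit3 (median −0.075).

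With the mean of the hepatocyte list without Alb as the covariate they were, in responsive against nonresponsive tumors, −1.07 for Clec4f, −1.09 for Vsig4, −1.04 for Cd5l, −0.36 for Marco, −0.21 for Stab2, −0.33 for Clec4g and −0.33 for Oit3 (median −0.87, 3 genes against 7.35%). In responsive against PBS tumors the values were −0.93 for Clec4f, −0.88 for Vsig4, −0.60 for Timd4, −0.86 for Cd5l, −0.42 for Marco, −0.56 for Stab2, −0.48 for Clec4g, −0.33 for Oit3 and −0.58 for Lyve1 (median −0.58, 0 genes against 3.77%). Nonresponsive against PBS tumors gave −0.062 for Marco, −0.35 for Stab2 and −0.15 for Clec4g (median 0.15).

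When each tumor was left out in turn, the median difference of the 9 genes ranged from 0.21 to 0.98 in responsive against nonresponsive, 0.98 to 2.43 in responsive against PBS and 0.52 to 1.52 in nonresponsive against PBS tumors, and the number of genes with an unadjusted p under 0.05 from 0 to 3, 0 to 6 and 0 to 1, where the share of all genes higher at that p ranged from 1.54% to 7.17%, 4.09% to 9.33% and 0.595% to 5.24%. Both lowest medians against PBS were those without PBS tumor 1. The difference of Vsig4 in responsive against nonresponsive tumors ran from −0.050 to 0.72 (lowest without nonresponsive tumor 3), that of Timd4 from −0.59 to 0.058 (highest without responsive tumor 2), that of Lyve1 in responsive against PBS from −0.091 to 0.56 (lowest without responsive tumor 1) and that of Stab2 in nonresponsive against PBS from −0.10 to 1.00 (lowest without PBS tumor 1). In responsive against PBS tumors the genes with an unadjusted p under 0.05 numbered 1 with a minimum FPKM of 5 (8.41% of all genes) and 5 with all 9 tumors in 1 fit (8.79% of all genes), and in nonresponsive against PBS 2 after rescaling to the total of named rows (2.70% of all genes). The cause of these shifts was not tested.

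The 7 genes related to Alb became 4 without the nonresponsive group, where 392 of 13851 genes were called with a positive r, 0 without the PBS group, 0 without the responsive group and 0 without the 2 tumors farthest from the median Alb, the last 3 with 0 genes of all called with a positive r and each with fewer tumors and so fewer pairings, and 3 to 7 when each tumor was left out (3 without PBS tumor 1, where 569 of 14306 genes were called so). The r of Lyve1 was −0.094 without those 2 tumors.

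Tumors of different groups share replicate numbers that nothing in the labels ties to a common animal, litter or day. Deviations of same-numbered tumors from their group means had correlations of 0.47, 0.045 and −0.050 between responsive and nonresponsive, −0.29, −0.32 and 0.13 between responsive and PBS and −0.39, −0.055 and −0.17 between nonresponsive and PBS tumors, and 2 of the 9 tumors correlated best with a tumor of their own number. With the replicate block in the fit 2 of the 9 genes (Stab2 and Clec4g) had an unadjusted p under 0.05 in responsive against nonresponsive tumors, 0 in responsive against PBS and 0 in nonresponsive against PBS tumors, where 5.35%, 4.69% and 0.833% of all genes were higher at that p.

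Precision was limited by 3 tumors a group and by the unknown number of fragments, and the deposited intervals of an FPKM cover its estimation in 1 tumor only.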

Other observations

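The 10 general macrophage genes, which Kupffer cells express too, had higher means in nonresponsive than in PBS tumors (median log2 difference 0.82), and 2 of 10 had a higher mean with a response than without (median −0.36), with 0 of 10 at an unadjusted p under 0.05 in any comparison (limma, lowest adjusted p = 0.292). The most abundant of them, Lyz2, Ctss and C1qa, had log2 differences of −0.14, −0.19 and 0.048 in responsive against nonresponsive tumors. Among 10 monocyte and tumor macrophage genes, Plac8 had FPKM of 221, 328 and 366 in PBS, 415, 454 and 397 in nonresponsive tumors and 184, 213 and 299 in responsive ones, without overlap between the antibody-treated groups (limma, adjusted p = 0.885). In that comparison 657 of 13845 genes were lower in responsive tumors without overlap. Mmp12, a macrophage elastase, had 164, 281 and 296 in PBS and 122, 76.3 and 102 in responsive tumors (limma, adjusted p = 0.281). Chil3 and Gpnmb had an unadjusted p under 0.05 in nonresponsive against PBS tumors, with log2 differences of 1.97 and 1.52 (limma, adjusted p = 0.718 for both). Of all genes 1.51% were higher at that p. Of the 6 genes of other tissue macrophages, Car4 and Siglecf had lower means in responsive than in nonresponsive tumors, by log2 differences of −0.77 and −0.96 (limma, adjusted p = 0.885 for both).

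The 10 general endothelial genes, led by Eng, Pecam1 and Egfl7 (which shares rows with neighboring genes), had 1 of 10 higher in responsive than in nonresponsive tumors (median log2 difference −0.11) and 9 of 10 higher in both treated groups than in PBS tumors (medians 0.24 and 0.33), with 0 of 10 at an unadjusted p under 0.05 (limma, lowest adjusted p = 0.309). Of the 6 lymphatic genes 6 were higher in responsive and 5 in nonresponsive than in PBS tumors. Aplnr, the apelin receptor of growing vessels, had FPKM of 4.50, 3.58 and 4.11 in PBS, 20.9, 24.7 and 7.18 in nonresponsive tumors and 9.80, 0.985 and 4.41 in responsive ones (nonresponsive against PBS, limma, adjusted p = 0.718). Ccl21a, a chemokine of lymphatic vessels, had 48.3, 68.3 and 38.9 in PBS and 136, 75.2 and 122 in responsive tumors (limma, adjusted p = 0.281). Lrat, with which stellate cells store vitamin A, had 0.0884, 0.828 and 1.48 in PBS, 2.88, 2.12 and 1.90 in nonresponsive tumors and 6.42, 2.47 and 5.22 in responsive ones, so that PBS tumors were below all others. Of all genes 11.6% were higher without overlap in responsive and 3.23% in nonresponsive than in PBS tumors. Among 7 genes of Hepa1-6 and fetal liver, H19 (in rows shared with Mir675) had 19.1, 2.87 and 12.0 in PBS, 17.6, 15.7 and 39.3 in nonresponsive tumors and 11.0, 3.52 and 3.01 in responsive ones. Igf2 was higher in all nonresponsive than in all PBS tumors, as were 3.23% of all genes, by 1.37 ± 0.259 on the log2 scale. Igf2bp3 was lower there, with a difference of −1.09 ± 0.433 and a value of 0 in nonresponsive tumor 3 (limma, adjusted p = 0.718 for both). Igf2bp3 was also lower in responsive than in PBS tumors, with a difference of −0.84 ± 0.244 (limma, adjusted p = 0.281).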
